A study of Mus musculus with 12 samples.

Results

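Retinoic acid reaches tooth-forming tissue through enzymes that make it, proteins that carry it, nuclear receptors that read it and enzymes that destroy it. The data here cover 10 mouse genes of this pathway: the retinaldehyde dehydrogenases Aldh1a1, Aldh1a2 and Aldh1a3, the receptors Rara, Rarb and Rarg, the hydroxylases Cyp26a1 and Cyp26b1, and the cellular binding proteins Crabp1 and Crabp2. They were chosen by name, and all 10 were listed among the 34347 genes of the deposited expression table. The libraries came from wild-type C57BL/6 mouse embryos with no transgene or drug, in 4 groups of 3: dental epithelium at E11.5, dental mesenchyme at E11.5, dental epithelium at E13.5 and dental mesenchyme at E13.5, where E is the day of embryonic development. Levels are FPKM, in which fragments are scaled by transcript length and by the mapped fragments of the library, so that genes of different length can be compared. The tissues were cut from mandibles at E11.5 and from tooth germs at E13.5 and were split with an enzyme, so a difference between stages cannot be told apart from a difference in the piece that was dissected. Incisor and molar tissue was not kept apart. The labels call the libraries biological replicates and also mention pooled RNA. The methods give only a total number of embryos, and how many stand behind a library is not given in the sources used here, so p-values measure the spread between these libraries.

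Retinol is oxidised to retinaldehyde and then, by the Aldh1a enzymes, to all-trans retinoic acid. The acid enters the nucleus, where dimers of a retinoic acid receptor (RAR) and a retinoid X receptor (RXR) sit on short paired DNA elements and switch their corepressors for coactivators, and Cyp26 enzymes hydroxylate it and so end the signal. In the embryonic face the balance of synthesis and breakdown is known to pattern the jaw and palate, and retinoic acid is known to disturb tooth initiation when it is given in excess.

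RAR and RXR dimers are known for binding direct repeats of a hexamer close to AGGTCA, and the genes Rarb and Cyp26a1 are textbook direct targets with such a repeat beside their start. The promoter windows of RefSeq (build GRCm38.p6, the build of the deposited coordinates), from 250 bases before to 50 bases after a transcription start, were searched on both strands for 2 hexamers in tandem, with 1, 2 or 5 bases between them. A hexamer could be the textbook AGGTCA, the form AGTTCA that turned up in both genes shown, the form GGTTCA that opens the Rarb repeat, or the remaining close relative GGGTCA. The search covered 8 of the 10 genes in 13 windows, and Aldh1a3 and Crabp2 had no entry. A repeat with 5 bases between the hexamers was found for Rarb and Cyp26a1 among the searched members, while 0.0974% of all 32851 windows held it. Since the forms searched for include those of these 2 repeats, finding them there was given in advance. The share over all windows therefore does not measure how unusual the 2 matches are. The elements are shown because they belong to a receptor and to a breakdown enzyme whose levels are described below. Capitals mark the hexamers, and 6 flanking bases stand on either side.
Rarb: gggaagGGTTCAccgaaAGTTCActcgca
Cyp26a1: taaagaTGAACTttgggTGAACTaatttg
The Rarb stretch lies at chr14:16575507-16575535 on the minus strand, with its repeat 53 to 37 bases before the start. The Cyp26a1 stretch lies at chr19:37697770-37697798 on the plus strand, with its repeat 32 to 16 bases before the start, and its hexamers read AGTTCA on the opposite strand. The repeats with 1 and 2 bases between hexamers, held by 0.222% and 0.268% of all windows, were found in no window of the 8 genes. These matches are descriptions of letters, and binding was not measured here.

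The tissue labels were checked with 8 epithelial and 8 mesenchymal marker genes, none of which was at 0 in any library. The summed FPKM of the epithelial list (keratins, Epcam, Cdh1 and Cldn4) was 229.6 to 288 in E11.5 epithelium against 22.7 to 27.1 in E11.5 mesenchyme, and 627 to 3129 in E13.5 epithelium against 76.1 to 113 in E13.5 mesenchyme. The mesenchymal list (Prrx1, Twist1, Pdgfra, Pdgfrb, 3 collagens and Vim) did not separate the tissues as well: its members stood at a median of 63.1 to 75.4% of the E11.5 mesenchyme mean in the E11.5 epithelium. For E13.5 the median was 24.5%, 14.6% and 78.1% in epithelium replicates 1, 2 and 3. E13.5 epithelium replicate 3 thus stands apart from its group, with the highest mesenchymal and the lowest epithelial list, and results that turn on it are given with and without it. Its library name carries no number, and neither do those of E11.5 epithelium replicate 3 and of mesenchyme replicate 1 at both stages. The paper's read summary gives these libraries a higher share of valid reads than the others. Leaving out E13.5 epithelium replicate 3 takes away the only such library of its group, while the other groups keep theirs. Within each group, the libraries with numbered names were more alike than either was to the library without a number. What the missing number marks is not given. In bulk tissue, fewer cells of a type and less RNA per cell cannot be told apart. Totals were between 70134554 and 79349382 deposited counts per library, and all 10 genes passed the filter on low counts in each comparison.

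A gene was called in a comparison when the Benjamini-Hochberg adjusted p of edgeR's quasi-likelihood test over all genes was under 0.05 and the log2 fold change was at least 1 in size. At E11.5, 2 of the 10 genes were called higher in epithelium than in mesenchyme, against 3.67% of all genes tested, and 0 were called lower, against 0.493%. At E13.5, 0 were called in either direction, against 1.59% of all genes higher and 0.17% lower. In epithelium from E11.5 to E13.5, 1 was called higher, against 4.27% of all genes, and 2 were called lower, against 1.29%. In mesenchyme over the same interval, 1 was called higher, against 13.1%, and 0 lower, against 3.09%. The change of the tissue difference between stages, tested as an interaction at an adjusted p under 0.05 with no fold threshold, was called for 1 gene in the negative direction, against 0.19% of all genes, and for 0 in the positive direction, against 0.0136%. The median log2 fold change of the 10 genes was -0.12 at E11.5 and -0.34 at E13.5 for epithelium over mesenchyme, beside medians of 0.01 and -0.01 over all genes. It was -0.34 in epithelium and 0.13 in mesenchyme for E13.5 over E11.5, beside 0.05 and 0.01 over all genes.

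The libraries of a comparison may also be read by overlap alone. At E11.5 the FPKM of 3 genes was higher in every epithelium library than in any mesenchyme library (Aldh1a1, Aldh1a3 and Cyp26a1), against 12.6% of all genes, and that of 2 was lower (Aldh1a2 and Rarb), against 14.1%. At E13.5 it was 3 genes, 1 higher (Aldh1a1) and 2 lower (Aldh1a2 and Aldh1a3), against 30.8% of all genes in either direction. From E11.5 to E13.5 in epithelium, 2 lay higher without overlap (Aldh1a3 and Rarb), against 18.2%, and 3 lower (Aldh1a1, Cyp26a1 and Crabp2), against 14.5%. In mesenchyme, 2 lay higher (Aldh1a2 and Aldh1a3), against 29.1%, and 3 lower (Rarb, Rarg and Crabp2), against 21.9%. With no fold threshold the mesenchyme test passed 2 higher (Aldh1a2 and Aldh1a3), against 22% of all genes, and 2 lower (Rarg and Crabp2), against 17%.

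**Figure D1:**
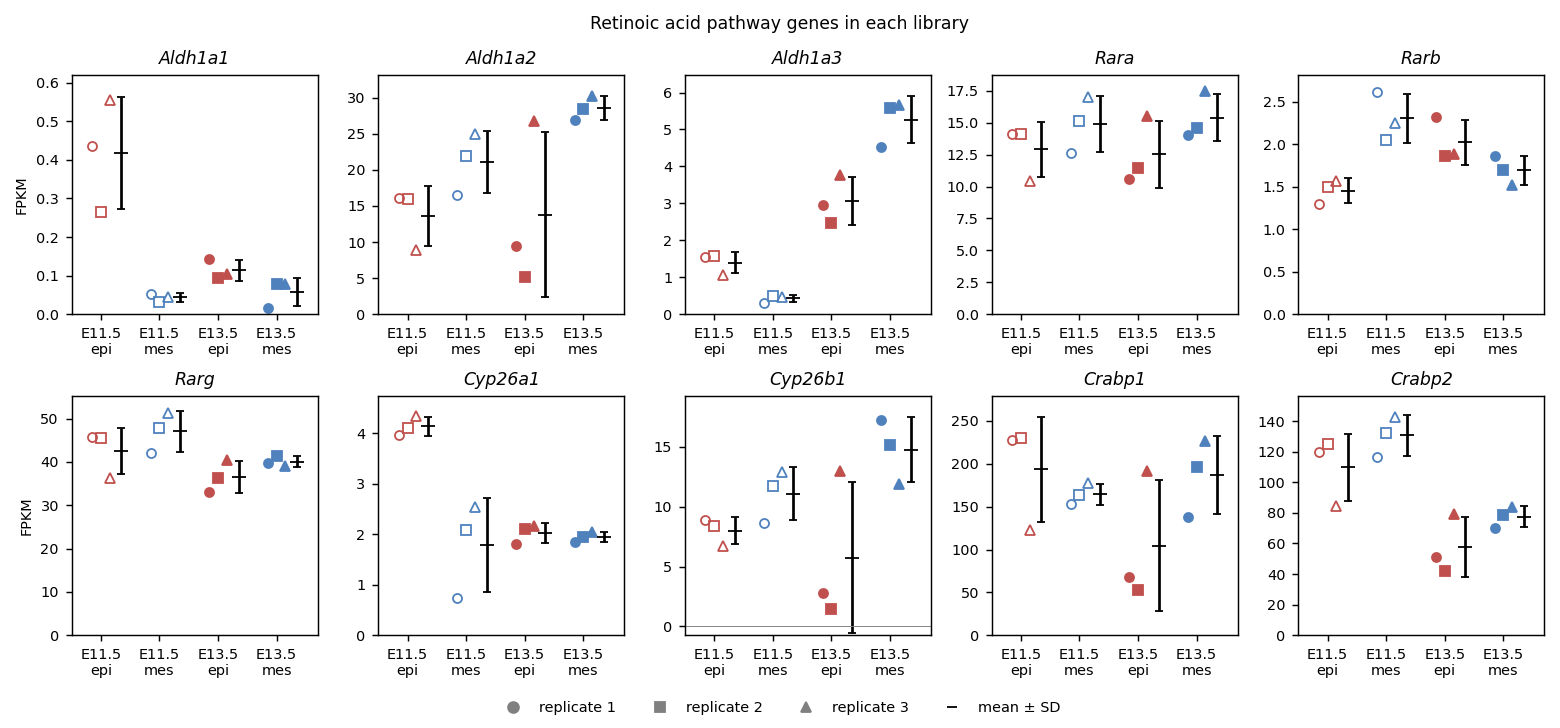
FPKM (vertical axes, linear, each gene on its own scale) of the 10 genes in the 12 libraries, by group on the horizontal axes, with epithelium red, mesenchyme blue, E11.5 open and E13.5 filled, and the mean ± SD of 3 libraries in black. Aldh1a3 separates all 4 groups, and E13.5 epithelium replicate 3 (red filled triangle) sits near the mesenchyme for Aldh1a2, Cyp26b1, Crabp1 and Crabp2.

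Aldh1a3, a retinaldehyde dehydrogenase known for its part in eye and nasal development, had the largest log2 fold change of the 10 genes over the 4 comparisons, in the mesenchyme. At E11.5 it was higher in the epithelium, and at E13.5 its mean was higher in the mesenchyme. Its FPKM in replicates 1, 2 and 3 was 1.55, 1.58 and 1.06 in E11.5 epithelium and 0.314, 0.493 and 0.477 in E11.5 mesenchyme, and the epithelium libraries all lay above the mesenchyme libraries. The difference was 1.76 ± 0.24 (SE) on the log2 scale (edgeR adjusted p = 0.00512, n = 3 per group), a ratio of means of 3.27, and it was called in each of 6 fits that left out a library. At E13.5 the FPKM was 2.95, 2.47 and 3.77 in epithelium and 4.53, 5.59 and 5.67 in mesenchyme, and every mesenchyme library now lay above every epithelium library. This E13.5 difference was -0.75 ± 0.20 on the log2 scale and did not pass (edgeR adjusted p = 0.102). Without E13.5 epithelium replicate 3 it was -0.95 with an edgeR adjusted p of 0.00417, still under the fold threshold.

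The mesenchyme mean of Aldh1a3 went from 0.428 ± 0.0993 (SD, n = 3) FPKM at E11.5 to 5.27 ± 0.634 at E13.5, 12.3 times as high. The rise was 3.59 ± 0.19 (SE) on the log2 scale with an edgeR adjusted p of 7.44e-06, and it was called in each of 6 fits without a library, at adjusted p between 1.97e-05 and 0.000145. The epithelium mean went from 1.40 ± 0.289 to 3.06 ± 0.658 FPKM. That rise was 1.13 ± 0.25 (SE) on the log2 scale with an edgeR adjusted p of 0.0389, and it depended on the libraries used: the adjusted p was 0.0348 to 0.139 over the 6 fits without a library. It was under 0.05 in 1 of them, without E13.5 epithelium replicate 3, where the log2 change of 0.94 was under the fold threshold. The interaction, which sets the E13.5 tissue difference against the E11.5 tissue difference, was -2.50 ± 0.32 on the log2 scale (edgeR adjusted p = 0.00940), and it passed in all 12 fits without a library, with adjusted p from 0.000566 to 0.0438. In order of its group means Aldh1a3 ran from E13.5 mesenchyme through E13.5 epithelium and E11.5 epithelium to E11.5 mesenchyme, with no overlap between neighbours in that order.

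Markers of other cell types moved with stage in the mesenchyme. The summed FPKM of 6 osteoblast markers (Runx2, Sp7, Alpl, Ifitm5, Ibsp and Bglap) was 8.0 to 12.3 at E11.5 and 157 to 294 at E13.5, with 4 of 6 called higher. That of 6 cartilage markers was 74.3 to 86.4 and then 178 to 225, with 4 of 6 called higher, and that of 6 skeletal muscle markers was 17.6 to 57.6 and then 187 to 358, with 5 of 6 called higher. Those of macrophages went from 9.4 to 14.8 up to 20.2 to 54.4, with 5 of 6 called higher, those of Schwann and glial cells from 8.3 to 10.9 up to 23.8 to 36.0, with 4 of 6, and those of neurons from 20.3 to 26.3 up to 35.6 to 64.3, with 3 of 8. The 8 epithelial markers went from 22.7 to 27.1 up to 76.1 to 113 in the mesenchyme, with 3 of 8 called higher. The 8 mesenchymal markers went from 460 to 605 up to 1268 to 1612, with 4 of 8 called higher. The 6 endothelial markers went from 50.4 to 55.7 up to 76.4 to 86.6, with 0 of 6 called in either direction. The 6 erythroid markers ran the other way, from 4083 to 8418 at E11.5 to 1793 to 2670 at E13.5, with 4 of 6 called lower. Ibsp, Bglap, Matn1 and Comp were each at 0 in 1 or more mesenchyme libraries, and the other markers of these lists were above 0. The part of these cells in the mesenchyme results was not tested.

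Aldh1a2, the main retinoic acid synthesising enzyme of embryonic mesoderm, was the most abundant dehydrogenase in every library. Of the summed Aldh1a FPKM it made up 84.5 to 97.9% at the earlier stage and 66.5 to 87.4% at the later. At E11.5 its FPKM was 16.1, 16.0 and 8.84 in epithelium and 16.5, 22.0 and 24.9 in mesenchyme. The groups did not overlap, with epithelium lower, but the nearest libraries differed little. The difference of -0.57 ± 0.23 (SE) on the log2 scale did not pass (edgeR adjusted p = 0.214). With the number in the library name as a block it was -0.61 with an edgeR adjusted p of 0.0194, still under the fold threshold.

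At E13.5 Aldh1a2 stood at 9.49, 5.10 and 26.8 FPKM in epithelium and at 26.9, 28.4 and 30.2 in mesenchyme. Epithelium replicate 3 was close to the mesenchyme libraries and the others were far below. With all libraries the difference was -1.01 ± 0.54 (SE) on the log2 scale and did not pass (edgeR adjusted p = 0.291). Without epithelium replicate 3 it was -1.96 ± 0.25 with an edgeR adjusted p of 0.00138, and was called lower in epithelium. In the mesenchyme it was higher at E13.5 by 0.41 ± 0.12 on the log2 scale, under the fold threshold (edgeR adjusted p = 0.0269), and this p rose above 0.05 in 3 of 6 fits without a library, those without E11.5 mesenchyme replicate 2 (0.0654), E13.5 mesenchyme replicate 2 (0.0879) or E13.5 mesenchyme replicate 3 (0.0767). In the epithelium the stage difference was 0.03 on the log2 scale with all libraries and -0.92 without E13.5 epithelium replicate 3, and neither passed.

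Aldh1a1, a dehydrogenase of dorsal retina and many adult epithelia, was scarce. Its FPKM was 0.436, 0.264 and 0.554 in E11.5 epithelium and 0.0527, 0.0316 and 0.0458 in E11.5 mesenchyme, which rests on 186, 114 and 251 deposited counts against 24, 14 and 19. The epithelium was higher in every library, by 3.28 ± 0.41 (SE) on the log2 scale (edgeR adjusted p = 0.00338), and the call held in 6 of 6 fits without a library. At E13.5 its FPKM was 0.143, 0.0935 and 0.103 in epithelium and 0.0164, 0.0788 and 0.0781 in mesenchyme. Epithelium was again above mesenchyme in every library, but the difference of 0.96 ± 0.63 on the log2 scale did not pass (edgeR adjusted p = 0.378), and it was 1.0 and did not pass without epithelium replicate 3. Within the epithelium Aldh1a1 fell by 1.87 ± 0.40 on the log2 scale from E11.5 to E13.5 (edgeR adjusted p = 0.0360). That call was lost in 5 of 6 fits without a library, with adjusted p from 0.0364 to 0.142, and of these fits it held only in that without E13.5 epithelium replicate 3, at -1.83. Aldh1a1 shares long stretches with its neighbour and close copy Aldh1a7, which stood at 2.50 to 2.98 FPKM in E11.5 epithelium and 2.01 to 2.68 in E11.5 mesenchyme. At E13.5 Aldh1a7 stood at 1.67 to 6.82 FPKM in epithelium and 0.361 to 1.25 in mesenchyme. The split of reads between these genes is uncertain at both stages.

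A list of 8 neuron markers was also higher in the E11.5 epithelium, with 7 of 8 called and a summed FPKM of 53.4 to 197 against 20.3 to 26.3 in mesenchyme. Its members stood at a median of 961%, 1001% and 306% of the mesenchyme mean in epithelium replicates 1, 2 and 3. Schwann and glial markers stood at a median of 328%, 294% and 139% there, with 2 of 6 called higher. For macrophage markers the median was 146%, 179% and 133%, with 1 of 6 called higher, and 1 of 6 osteoblast markers was called lower. In the same libraries Aldh1a1 was highest in replicate 3 and Aldh1a3 was lowest there, at 361%, 370% and 249% of the mesenchyme mean. From E11.5 to E13.5 in epithelium, 3 of 8 neuron markers were called lower, with a summed FPKM of 18.5 to 34.3 at E13.5, and 3 of 6 erythroid markers, whose sum went from 2239 to 5129 at E11.5 to 794 to 1928 at E13.5. No neuron or erythroid marker was at 0 in any library. In the same stage comparison 3 of 8 epithelial and 2 of 6 cartilage markers were called higher. Of 6 Schwann and glial markers, 1 was called higher and 1 lower, and the other lists held no call. The part of these cells in the E11.5 tissue differences and in the epithelial stage differences was not tested.

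Retinoic acid made in the cell is bound by 2 small carriers, of which Crabp2 is known to pass it to the receptors and Crabp1 is commonly linked to its disposal. They were the most abundant of the 10 genes, and Crabp1 made up 55.2 to 73.0% of their summed FPKM. Crabp1 stood at 228, 229.7 and 123 FPKM in E11.5 epithelium and at 153, 163 and 177 in E11.5 mesenchyme. Epithelium replicate 3 was the lowest of these 6 libraries and replicates 1 and 2 were the highest. The difference of 0.28 on the log2 scale did not pass (edgeR adjusted p = 0.529), whereas without epithelium replicate 3 it was 0.52 with an edgeR adjusted p of 0.0020, under the fold threshold.

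At E13.5 Crabp1 stood at 68.1, 53.2 and 192 FPKM in epithelium and at 137, 196 and 227 in mesenchyme. The groups overlapped through epithelium replicate 3. With all libraries the difference was -0.80 ± 0.48 (SE) on the log2 scale (edgeR adjusted p = 0.342), and without that library it was -1.61 ± 0.21 (edgeR adjusted p = 0.00173) and called lower in epithelium. In the epithelium from E11.5 to E13.5 the log2 difference was -0.88 with all libraries (edgeR adjusted p = 0.320) and -1.68 without that library (edgeR adjusted p = 0.0122). In the mesenchyme the stage difference was 0.15 on the log2 scale and did not pass (edgeR adjusted p = 0.484), though without E13.5 mesenchyme replicate 1 it was 0.33 with an edgeR adjusted p of 0.0121.

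Crabp2 had lower means at E13.5 in both tissues. Its FPKM was 117, 132 and 143 in E11.5 mesenchyme, and the E13.5 mesenchyme libraries all lay below at 70.1, 78.5 and 83.8. It fell by 0.78 ± 0.09 (SE) on the log2 scale, under the fold threshold but with an edgeR adjusted p of 0.000275, and this p stayed under 0.05 in 6 of 6 fits without a library. In E11.5 epithelium it stood at 119.6, 125 and 84.6 FPKM, and in E13.5 epithelium at 51.3, 42.0 and 79.5. No E13.5 library reached the lowest E11.5 library, and the difference of -0.93 ± 0.27 on the log2 scale did not pass with all libraries (edgeR adjusted p = 0.0772). Without E13.5 epithelium replicate 3 it was -1.24 (edgeR adjusted p = 0.00863), a call. Between tissues the E11.5 difference was -0.20 on the log2 scale and did not pass (edgeR adjusted p = 0.498). The E13.5 difference was -0.40, which did not pass either (edgeR adjusted p = 0.334), and without epithelium replicate 3 it was -0.72 with an edgeR adjusted p of 0.00493.

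The receptors varied least in their group means among the 10 genes. Rarg, the receptor of skin and cartilage, was the most abundant in every library and made up 67.2 to 75.2% of the summed Rar FPKM. Its lowest group mean was 36.6 ± 3.65 (SD, n = 3) FPKM, in E13.5 epithelium, and its highest was 47.0 ± 4.68, in E11.5 mesenchyme. Neighbouring groups in the order of means overlapped. Rara, the most widely expressed receptor in mouse tissues, ran from 12.5 ± 2.64 FPKM in E13.5 epithelium to 15.4 ± 1.85 in E13.5 mesenchyme, also with overlap between neighbours. Neither gene was called in any comparison. Rarg was lower by 0.26 ± 0.08 (SE) on the log2 scale at E13.5 in mesenchyme (edgeR adjusted p = 0.0381), and that p rose to between 0.0615 and 0.162 without E11.5 mesenchyme replicate 2 or 3 or without E13.5 mesenchyme replicate 2 or 3. Rara passed once, at E13.5 without epithelium replicate 3, with -0.47 on the log2 scale for epithelium over mesenchyme (edgeR adjusted p = 0.0220).

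Rarb, the receptor whose promoter carries the repeat printed above, was the least abundant receptor, with group means of 1.45 to 2.30 FPKM. Its FPKM was 1.29, 1.5 and 1.57 in E11.5 epithelium and 2.62, 2.04 and 2.25 in E11.5 mesenchyme, so that every mesenchyme library was higher. The difference of -0.62 ± 0.17 (SE) on the log2 scale did not pass (edgeR adjusted p = 0.0848). It passed without E11.5 epithelium replicate 3 (edgeR adjusted p = 0.0418), with DESeq2 on all libraries (-0.63, adjusted p = 0.00783) and with the library name number as a block (-0.61, edgeR adjusted p = 0.0346), each time under the fold threshold. At E13.5 the FPKM was 2.32, 1.86 and 1.88 in epithelium and 1.86, 1.69 and 1.52 in mesenchyme, where the epithelium was level or higher and the difference of 0.27 on the log2 scale did not pass, nor did the 0.31 found without epithelium replicate 3. Within the mesenchyme the stage difference was -0.48 ± 0.17 on the log2 scale at an edgeR adjusted p of 0.0501, which was 0.0210 with the replicate number as a block, where the difference was -0.47. The interaction of 0.91 ± 0.24 did not pass in edgeR (adjusted p = 0.136). It passed without E13.5 epithelium replicate 3 (0.95, edgeR adjusted p = 0.0275) and with DESeq2 on all libraries (0.91, adjusted p = 0.0109). Rarb overlaps Top2b, a topoisomerase gene on the opposite strand, over 4624 bases, and since the strand of the counting is not given in the sources used here, reads there cannot be told apart. Top2b had group means of 21.7, 26.3, 22.2 and 17.2 FPKM in E11.5 epithelium, E11.5 mesenchyme, E13.5 epithelium and E13.5 mesenchyme, so that the highest and the next group were those of Rarb.

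**Figure D2:**
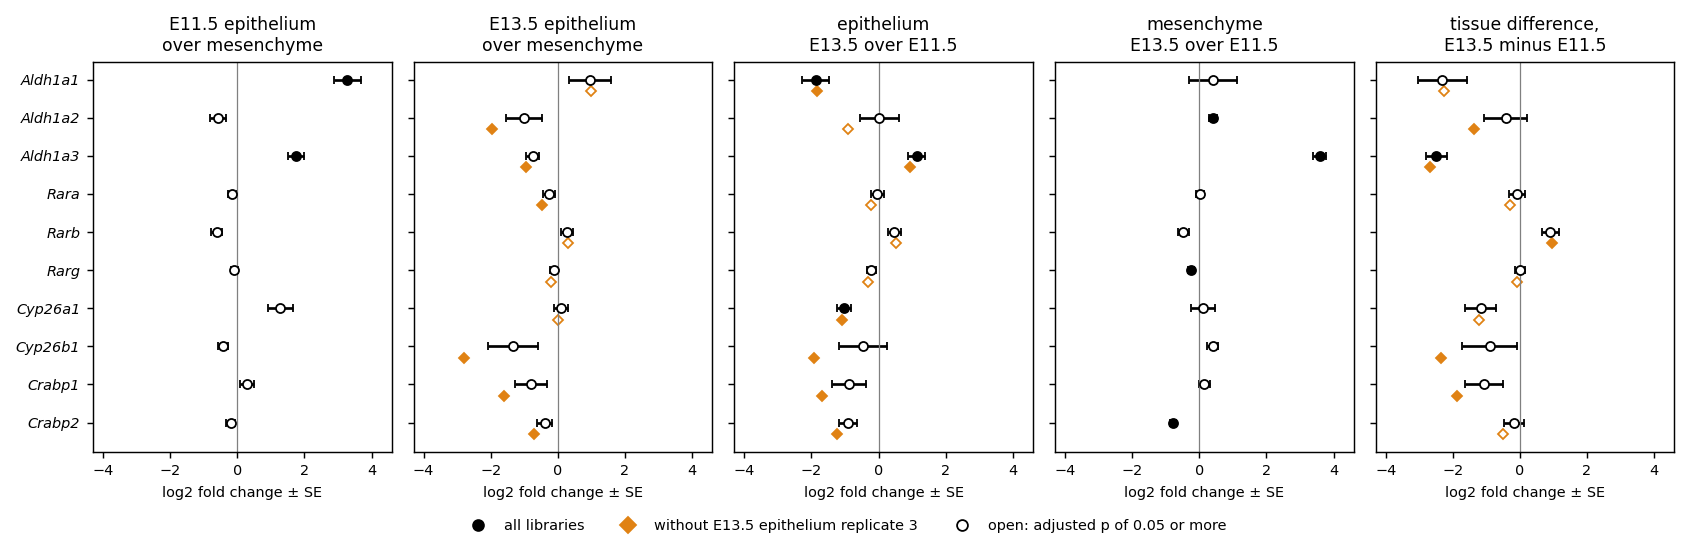
Log2 fold changes ± SE (horizontal axes) of the 10 genes in the 4 comparisons and in the interaction, over all libraries (black circles) and without E13.5 epithelium replicate 3 (orange diamonds), filled where the edgeR adjusted p was under 0.05. Aldh1a3 is at 3.59 in mesenchyme and -2.50 in the interaction, and Aldh1a2, Cyp26b1 and Crabp1 move to -1.96, -2.81 and -1.61 at E13.5 without that library.

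The hydroxylases that break retinoic acid down followed different patterns. Cyp26a1, the other gene with a printed repeat, was highest in the E11.5 epithelium, at 3.97, 4.10 and 4.34 FPKM against 0.745, 2.09 and 2.53 in E11.5 mesenchyme. All 3 epithelium libraries lay above all mesenchyme libraries, and mesenchyme replicate 1 was the lowest. The difference of 1.28 ± 0.37 (SE) on the log2 scale did not pass with all libraries in edgeR (adjusted p = 0.0918), and DESeq2 on the same libraries called it at 1.27 with an adjusted p of 0.00740. With the library name number as a block it was 1.41 with an edgeR adjusted p of 0.0495, a call, and without mesenchyme replicate 1 it was 0.93 with an edgeR adjusted p of 0.0298.

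At E13.5 Cyp26a1 stood at 1.81, 2.10 and 2.16 FPKM in epithelium and 1.84, 1.95 and 2.05 in mesenchyme, which overlap, and the difference was 0.08 on the log2 scale with all libraries and 0.0143 without epithelium replicate 3. It fell within the epithelium by 1.03 ± 0.20 (SE) on the log2 scale (edgeR adjusted p = 0.0293), with every E13.5 library below every E11.5 library. The adjusted p was 0.0132 to 0.135 over the 6 fits without a library and under 0.05 in 2 of them, those without replicate 3 of either stage. Without E13.5 epithelium replicate 3 the log2 change was -1.09. In the mesenchyme the stage difference was 0.11 on the log2 scale and did not pass.

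Cyp26b1, the hydroxylase known for limb and skeletal patterning, was the more abundant of the pair in 11 of 12 libraries. At E11.5 its FPKM was 8.87, 8.42 and 6.70 in epithelium and 8.64, 11.7 and 12.9 in mesenchyme. The groups overlapped, and the difference of -0.41 ± 0.14 (SE) on the log2 scale did not pass (edgeR adjusted p = 0.160), though with the library name number as a block its adjusted p was 0.00951. At E13.5 the FPKM was 2.77, 1.46 and 13 in epithelium and 17.2, 15.2 and 11.9 in mesenchyme. Epithelium replicate 3 was above the lowest mesenchyme library, and the others were several times below it. With all libraries the difference was -1.33 ± 0.74 on the log2 scale (edgeR adjusted p = 0.308), and without epithelium replicate 3 it was -2.81 ± 0.31 (edgeR adjusted p = 0.000785), the largest of the 10 genes in that fit. In the epithelium from E11.5 to E13.5 the log2 difference was -0.47 with all libraries (edgeR adjusted p = 0.738) and -1.93 without that library (edgeR adjusted p = 0.00719). In the mesenchyme it was 0.40 (edgeR adjusted p = 0.0937), and 0.55 without E13.5 mesenchyme replicate 3 (edgeR adjusted p = 0.0244).

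Leaving out E13.5 epithelium replicate 3 thus changed the counts. That library was singled out by its marker values, and its group is then 1 library smaller than the others. Genes that follow the mesenchymal markers are bound to read lower in E13.5 epithelium without it. The counts below therefore depend on that choice and are no independent evidence. At E13.5, 3 of 10 genes were then called lower in epithelium (Aldh1a2, Cyp26b1 and Crabp1), against 9.64% of all genes, and 0 higher, against 6.34%. With no fold threshold 6 passed as lower, Aldh1a3, Rara and Crabp2 included, against 15.7% of all genes, and 0 as higher, against 12.5%. From E11.5 to E13.5 in epithelium, 5 of 10 were called lower (Aldh1a1, Cyp26a1, Cyp26b1, Crabp1 and Crabp2), against 3.69% of all genes, and 0 higher, against 6.89%. In the interaction, 4 passed in the negative direction (Aldh1a2, Aldh1a3, Cyp26b1 and Crabp1), against 9.21%, and 1 in the positive direction (Rarb), against 4.2%. With all libraries and no call at E13.5, 1 gene, Aldh1a3, had an unadjusted p under 0.05 there, against 23.6% of all genes in either direction, and DESeq2 also called 0 at both thresholds while giving Aldh1a3 an adjusted p of 0.0117 at -0.75.

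**Figure D3:**
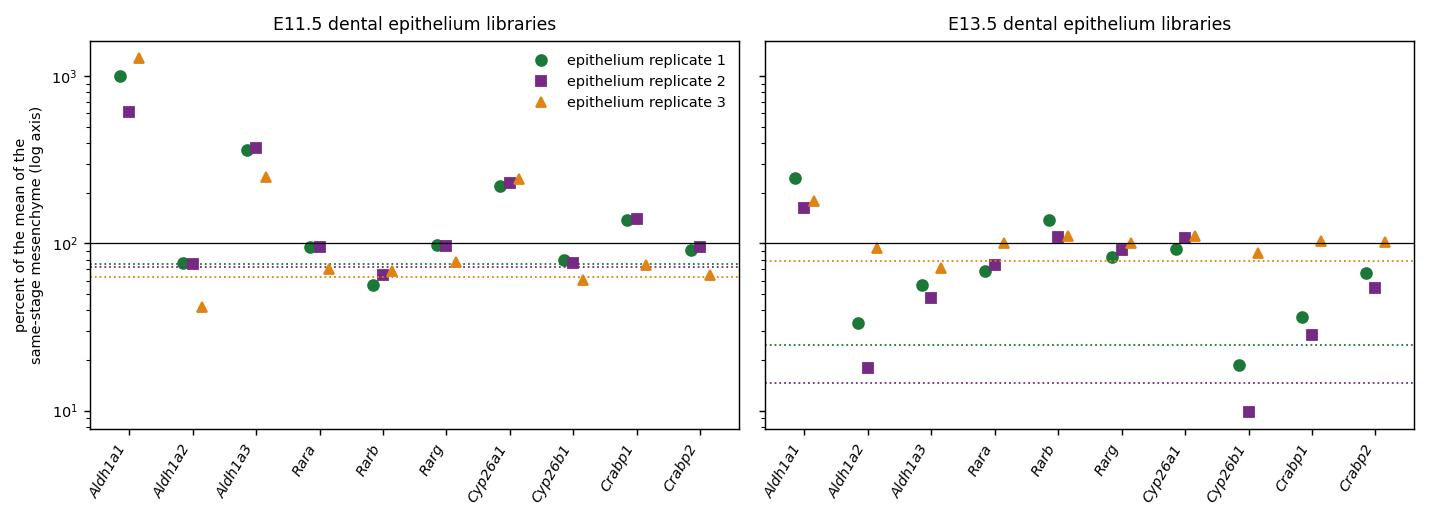
FPKM of each gene in each epithelium library as a percent of the mean of the 3 mesenchyme libraries of its stage (vertical log axis), with replicates 1, 2 and 3 in green, purple and orange and dotted lines at the median of the 8 mesenchymal markers in the same library. At E13.5 replicates 1 and 2 have Aldh1a2 at 33.3% and 17.9% and Cyp26b1 at 18.8% and 9.9%, near their dotted lines, and replicate 3 has them at 93.9% and 87.9%.

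Set against the mesenchyme of the same stage, the E13.5 epithelium libraries differed in the way their mesenchymal markers did. Cyp26b1 stood at 18.8%, 9.9% and 87.9% of the mesenchyme mean in replicates 1, 2 and 3, and Aldh1a2 at 33.3%, 17.9% and 93.9%. The mesenchymal markers stood at 24.5%, 14.6% and 78.1% in the same libraries. Crabp1 followed the same order at 36.5%, 28.5% and 102.9%. Rarb and Cyp26a1 did not follow it and stood at 92.8 to 137% in all 3 libraries. Aldh1a3 varied less than Aldh1a2, from 46.9% to 71.6%. At E11.5, Aldh1a3 was at 249 to 370% and Cyp26a1 at 222 to 242%, in libraries whose mesenchymal markers were at 63.1 to 75.4%. In those libraries Aldh1a2 was at 41.8 to 76.0%, Cyp26b1 at 60.4 to 79.9% and Rarb at 56.0 to 68.1%. Aldh1a1 was at 608 to 1278%, and Rara, Rarg, Crabp1 and Crabp2 lay between 64.8 and 140%. The part of mesenchymal RNA in the epithelium values was not tested.

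**Figure D4:**
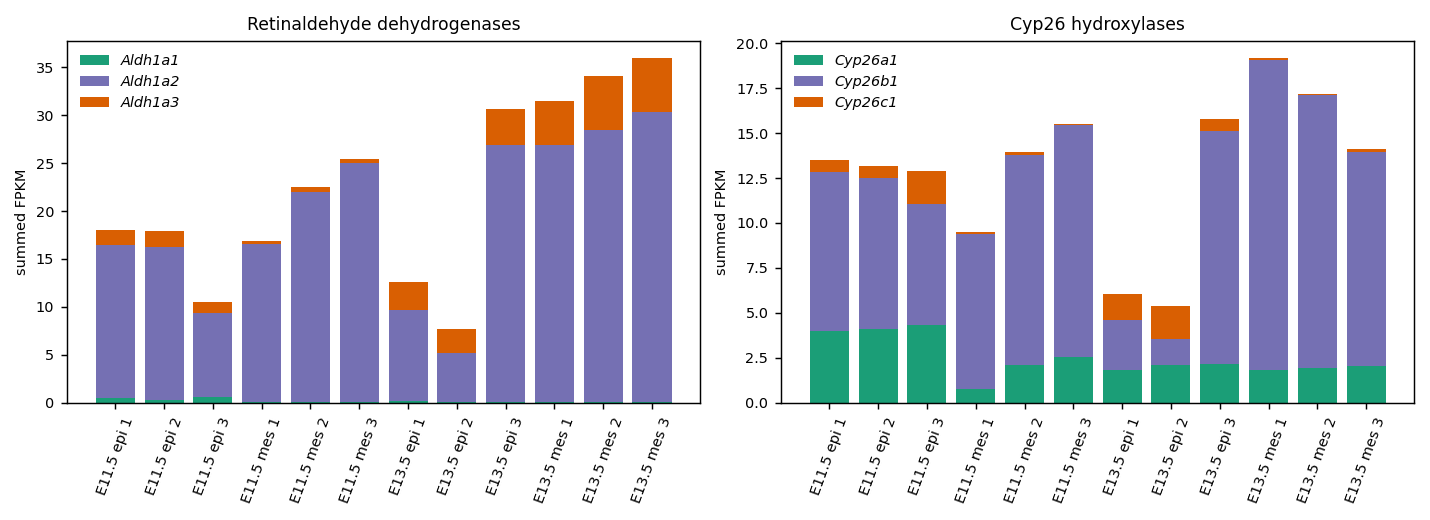
Summed FPKM (vertical axes, linear, starting at 0) of the 3 Aldh1a genes and of the 3 Cyp26 genes, Cyp26c1 included, in each of the 12 libraries. The Aldh1a sum is 31.5 to 36.0 in E13.5 mesenchyme and 7.7 to 12.6 in E13.5 epithelium replicates 1 and 2, and Aldh1a2 and Cyp26b1 form most of the bars except where Cyp26b1 is low in these epithelium libraries.

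The summed FPKM of the 3 dehydrogenases was 10.5 to 18.0 in E11.5 epithelium and 16.9 to 25.5 in E11.5 mesenchyme. At E13.5 it was 12.6, 7.7 and 30.7 in epithelium replicates 1, 2 and 3 and 31.5 to 36.0 in mesenchyme. The sum of Cyp26a1 and Cyp26b1 ran from 9.4 to 15.5 over the 6 libraries of E11.5. At E13.5 it was 4.6, 3.6 and 15.1 in epithelium and 14.0 to 19.1 in mesenchyme. Cyp26b1 made up 40.9% of this sum in E13.5 epithelium replicate 2 and 92.1% in E11.5 mesenchyme replicate 1. Both sums were low in E13.5 epithelium replicates 1 and 2 through Aldh1a2 and Cyp26b1, while Cyp26a1 was about level over the E13.5 libraries and Cyp26c1, at 1.46 and 1.81 FPKM, was higher in these libraries than in replicate 3 or the mesenchyme.

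Across the 12 libraries, which share tissue and stage, Aldh1a2 and Cyp26b1 had a Pearson correlation of 0.94 in log2(FPKM + 0.5), and Rarg and Crabp2 of 0.88. Rarb and Cyp26a1, both with the printed repeat, had one of -0.77. These are descriptions over 4 groups. Among 13123 genes with a mean of at least 1 FPKM, those most like Aldh1a2 over the 12 libraries were Il11ra1 (0.99), Tbkbp1 (0.98) and Col26a1 (0.98), and those most like Cyp26b1 were Rftn2 (0.99), Pdgfrb (0.99) and Lix1l (0.98), Pdgfrb being among the mesenchymal markers. Those most like Aldh1a3 were Dpysl3 (0.99), Tmed9 (0.99) and Sdk1 (0.98). Crabp2 was most like Ogfr (0.99), and Crabp1 had Fgf13 (0.96) and Clip3 (0.96) among its 3 nearest genes. Cyp26a1 had Tspan17 (0.92), Rarb had Cul5 (0.90), Rara had Stk25 (0.94) and Rarg had Rnf10 (0.96) as their nearest genes.

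The rest of the pathway was read from 37 further genes for retinol uptake and storage, retinol and retinaldehyde conversion, further breakdown and binding, receptor partners and known responses. At E11.5, 4 of the 30 tested were called higher in epithelium, against 3.67% of all genes, and 0 lower, against 0.493%. Cyp26c1, the third retinoic acid hydroxylase, was at 0.677, 0.653 and 1.84 FPKM in epithelium and 0.131, 0.154 and 0.0392 in mesenchyme, with a log2 difference of 3.28 ± 0.65 (SE, edgeR adjusted p = 0.0253) that did not pass when any mesenchyme library was left out. Its epithelium values were all above its mesenchyme values, and replicate 3 was the highest.

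Meis1, a homeobox cofactor known to respond to retinoic acid in limb buds, was at 10.7, 10.4 and 13.4 FPKM in E11.5 epithelium and at 5.29, 5.41 and 5.40 in E11.5 mesenchyme. The tissues were well apart, by 1.15 ± 0.12 (SE) on the log2 scale (edgeR adjusted p = 0.0016), in 6 of 6 fits without a library. At E13.5 the difference was 0.11 on the log2 scale with all libraries and -0.26 without epithelium replicate 3, and neither passed. In the mesenchyme Meis1 was higher at E13.5 by 0.83 ± 0.08, under the fold threshold (edgeR adjusted p = 0.000136). Ttr, which carries retinol in blood, had 346, 1060 and 251 deposited counts in E11.5 epithelium and 0 in each mesenchyme library. Against a floor of 3 counts per library it was at least 184-fold higher (edgeR adjusted p = 0.0054). Its counts were uneven at E13.5, with 16, 46 and 0 in epithelium and 0, 719 and 498 in mesenchyme.

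At E13.5, 1 of 31 tested pathway genes was called higher in epithelium, again Cyp26c1, against 1.59% of all genes, and 0 were called lower, against 0.17%. Cyp26c1 stood at 1.46, 1.81 and 0.625 FPKM in epithelium and 0.107, 0.0678 and 0.141 in mesenchyme. The groups were apart, by 3.58 ± 0.52 (SE) on the log2 scale (edgeR adjusted p = 0.0347), but the call was lost, with adjusted p of 0.0655 to 0.207, on leaving out any library other than epithelium replicate 3. Meis2, a relative of Meis1, was higher in epithelium by 0.96 ± 0.11 on the log2 scale (edgeR adjusted p = 0.0347), under the fold threshold, and by 0.94 without epithelium replicate 3. Without epithelium replicate 3, Stra6 (-1.33), a retinol receptor, Rxrg (-1.02) and Tgm2 (-2.08) were among those also called lower in epithelium on the log2 scale, and Adh1 (2.70), Cyp26c1 (3.91) and Fabp5 (1.29) among those called higher.

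Between stages, 2 of 32 tested pathway genes were called in epithelium, both higher at E13.5, against 4.27% of all genes higher and 1.29% lower. Adh1, an alcohol dehydrogenase that oxidises retinol, went from 0.0914 ± 0.0412 (SD, n = 3) to 1.3 ± 0.522 FPKM, by 3.77 ± 0.51 (SE) on the log2 scale (edgeR adjusted p = 0.0132). Adh7, a related enzyme, had 24, 8 and 7 deposited counts in E11.5 epithelium and then 104, 68 and 93, a log2 difference of 2.72 ± 0.62 (edgeR adjusted p = 0.0426). Both calls depended on the libraries used. That of Adh1 was lost without E11.5 epithelium replicate 1 or 2 or without E13.5 epithelium replicate 1 (adjusted p 0.062 to 0.0744), and that of Adh7 held in 1 of 6 fits without a library (adjusted p 0.0434 to 0.163).

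In mesenchyme 6 of 28 tested pathway genes were called higher at E13.5, against 13.1% of all genes, and 0 lower, against 3.09%. Adh7 had 0 counts in each E11.5 mesenchyme library and 188, 110 and 177 at E13.5, at least 52.8-fold higher against a floor of 3 counts per library. Tgm2, a transglutaminase known to respond to retinoic acid, went from 1.14 ± 0.159 (SD, n = 3) to 6.18 ± 0.701 FPKM, by 2.42 ± 0.15 (SE) on the log2 scale. The RXR gene Rxrg rose by 1.12 ± 0.28 on the log2 scale (edgeR adjusted p = 0.0124), and the coactivator gene Ncoa1 by 1.08 ± 0.12 (edgeR adjusted p = 0.0002). The calls of Adh7, Tgm2 and Ncoa1 held in 6 of 6 fits without a library. That of Rxrg held in 4, since its log2 change was 0.89 without E11.5 mesenchyme replicate 1 and 0.99 without E13.5 mesenchyme replicate 3. Rbp4, a retinol carrier of plasma, rose by 1.72 ± 0.48 on the log2 scale (edgeR adjusted p = 0.0202), and it passed in 2 of 6 such fits, with adjusted p up to 0.0793. Under the fold threshold, Rdh10, the main retinol dehydrogenase of the mouse embryo, was higher by 0.46 ± 0.11 on the log2 scale (edgeR adjusted p = 0.0096) and Stra6 was lower, at -0.95 ± 0.13 (edgeR adjusted p = 0.0008).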

How the data were processed

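RNA of 12 libraries (4 groups of 3) was sequenced as paired reads. Reads were trimmed with Cutadapt 1.9 according to the labels. HISAT2 2.0.4, StringTie 1.3.4d, edgeR and the build mm10 stand in the submitters' notes on processing. The FPKM values were deposited by the authors, scaled by gene length and mapped fragments. The deposited counts were whole but sum to more than the read pairs, and are treated here as rounded estimated counts, with which counting error looks smaller than it is. Totals were 70134554 to 79349382 per library, and the spread between libraries sets the precision.

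Genes were tested with edgeR 4.0.16 in R 4.3.3 (filterByExpr, TMM, glmQLFit and glmQLFTest), in each comparison over its own 6 libraries and for the interaction over 12. The Benjamini-Hochberg adjustment covered all genes tested, and the thresholds were 0.05 and a log2 fold change of 1. The SE is the log2 fold change over the root of F. Levels are means ± SD over 3 libraries. The scripts were tested on simulated data. Alternatives were RLE size factors, DESeq2 1.42.0, limma 3.58.1 on log2(FPKM + 0.5) or log2(FPKM + 0.1) with at least 0.5 FPKM in 3 libraries, no filter, a covariate for libraries whose names carry no number, the replicate number as a block, all 12 libraries in 1 fit, no fold threshold and each library left out. The library name number as a block was added after seeing the data.

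Library deviations from their group means were correlated between same-numbered libraries, over genes with a mean count of at least 1000. Replicate numbers paired the mesenchyme stages (0.49, 0.22 and 0.35), and library name numbers paired the tissues at E11.5 (0.63, 0.45 and 0.44). No other comparison had each correlation above 0.1, and the labels do not say what a number marks. The members, the pathway and marker lists and the rule for named genes (all members, and pathway genes called in a comparison, with further ones chosen after their values were seen) were chosen with earlier results of these data known. E11.5 epithelium replicates 1 and 2 were the most alike pair of all, with a median difference of 4.00% over genes. This was beyond the counting error of the deposited counts, but that error looks smaller than it is. The excess therefore cannot show that the 2 libraries come from separate tissue. They were kept as separate samples because the labels call them biological replicates. Within each group the libraries with numbered names were the closest pair, with a median difference of at most 7.40% (E13.5 epithelium). Pairs with the unnumbered library differed by 10.4% (E11.5 mesenchyme) to 20.2% (E13.5 epithelium). The libraries of a group are thus not equally alike, and the cause was not tested. Protein sequences were not analysed here. Some pathway genes that enter the counts are not reported here by name.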

Additional observations from a re-analysis of the deposited data

Results flagged for a closer look

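The tissue difference of Aldh1a3, the retinaldehyde dehydrogenase, changed between stages, with an interaction of -2.50 on the log2 scale that passed the test over all 22110 genes. The retinol-oxidising enzyme gene Adh7 did so too, with an interaction of -7.57 on the log2 scale (edgeR adjusted p = 0.0436). That fitted value depends on the prior count, because Adh7 had 0 counts in each E11.5 mesenchyme library, and it passed in 2 of 12 fits without a library, with adjusted p from 0.0058 to 0.119. The groups of 3 libraries are too small for a search for single outlying values.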

How the results depend on the processing

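Counts of called genes moved as follows. At E11.5, 1 gene was called higher in epithelium with limma at either pseudocount, where Aldh1a1 was under the FPKM filter, and 3 with DESeq2, the covariate for unnumbered libraries or the name number as a block, against 2. At E13.5, 0 to 3 were called lower over the fits without a library. For the stage difference in epithelium, the 1 call of a higher gene was 0 with limma on log2(FPKM + 0.5), with no filter, with the replicate block, with the name number as a block and in each fit without a library (0 to 0). The 2 calls of lower genes there became 0 with limma at either pseudocount and with either block, 1 with no filter, and 0 to 5 without a library. In mesenchyme, dropping the fold threshold gave 2 higher and 2 lower. For the interaction, DESeq2 gave 1 positive call, and the fits without a library gave 0 to 1 positive and 1 to 4 negative calls.

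The log2 stage difference of Aldh1a2 in epithelium reversed with RLE and DESeq2 (-0.0103 and -0.0104), limma (-0.25 and -0.27), the covariate for unnumbered libraries (-0.29) and either block (-0.32), and ran from -0.92 to 0.36 without a library. Those of Rara ran from -0.24 to 0.0712 in epithelium and from -0.0597 to 0.10 in mesenchyme, and that of Cyp26a1 in mesenchyme from -0.23 to 0.42. The interaction ran from -0.30 to 0.0158 for Rara and from -0.10 to 0.0770 for Rarg, which was -0.00175 with no filter. No value that passed the test changed sign under the alternatives listed, and apart from the values given here and in the report the blocks changed no call of the 10 genes. The replicate numbers share only a number in the comparisons other than mesenchyme stages. The cause of these changes was not tested. With 3 libraries a group, the deposited counts cannot show small differences in the scarce Aldh1a1.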
